A study of Mus musculus with 17 samples.

Results

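The genes described are the matrix metalloproteinases (MMPs), the ADAMTS proteases (a disintegrin and metalloproteinase with thrombospondin motifs) and the tissue inhibitors of metalloproteinases (TIMPs). They were chosen by symbol, as the protein-coding genes named Mmp, Adamts or Timp followed by a number, a rule that uses no measured value. This gave 45 genes, 22 MMPs, 19 ADAMTS proteases and 4 TIMPs, of the 55335 genes in the count files. Mmp1a was left out because the annotation, GENCODE M21 on mm10, lists it as a polymorphic pseudogene.

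MMPs are zinc proteases that cleave collagens and other matrix proteins outside the cell or at its surface, and most are made as inactive precursors. ADAMTS proteases are secreted relatives that cleave proteoglycans such as aggrecan and versican, or remove the amino-terminal propeptide of fibrillar procollagens. TIMPs bind the active site of MMPs and, for some pairs, of ADAMTS proteases. In bone, this system takes part in growth plate resorption, matrix remodelling by osteoblasts and osteoclasts, and release of matrix-bound factors.

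Bulk RNA sequencing was made on 2 cell types sorted from the bone fraction of mice. Skeletal stromal/stem cells (SSCs) were CD45- TER119- CD31- CD51+ Sca-1+ PDGFRα+, and osteoprogenitor cells (OPCs) had the same gate but were Sca-1- and PDGFRα+/-. The mice were littermates of 3 genotypes: Cxcr4+/+ (WT), Cxcr4+/1013 (+/1013) and Cxcr4 1013/1013 (1013/1013). The question was how this gain-of-function change of the chemokine receptor CXCR4 alters the RNA of SSCs and OPCs. The 1013 allele is a knock-in in the germline that truncates the tail of the receptor, so every cell of a mutant mouse carries it. The mutant cells were sorted from the bone fraction of such mice, whose other cells carried the allele too. The methods describe females of 8 to 12 weeks, no treatment, and pools of 3 mice. The strain background is not given in the sources used here. Bones were flushed, cut and digested with collagenase before sorting, which all groups shared. There were 3 libraries per cell type and genotype, but 2 of 1013/1013 SSCs, 17 in all. Counts per gene do not show the truncation, so the genotype labels could not be checked on them.

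The OPC libraries held 64099849 to 92683497 counts on genes, and the SSC libraries 44217695 to 50509592. A count of 3, taken as the limit of detection, was 0.0324 to 0.0468 CPM, which divides each count by its library's total, in OPCs and 0.0594 to 0.0678 CPM in SSCs, which covers counting error only. The sorted types had their markers: 7 genes of Sca-1-positive stroma summed to 1810 to 6180 normalized CPM in SSCs and 133 to 464 in OPCs, and 8 osteoblast genes to 7850 to 30100 in OPCs and 2180 to 6040 in SSCs. Chondrocyte genes summed to 13700 to 95400 in OPCs and 7.86 to 4290 in SSCs. The 10 neutrophil and myeloid genes stood apart in 3 libraries, at 25800 in replicate 3 of WT OPCs, 18100 in replicate 2 of 1013/1013 OPCs and 9560 in replicate 3 of WT SSCs, against 32.8 to 993 in the other libraries. A value from bulk RNA cannot tell fewer cells of a type from less RNA per cell. The labels name pools and no batch, so p-values measure the spread between these pools.

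Of the 45 genes, 37 reached a group mean of 1 normalized CPM, 14 reached 100, and 21 had more than 3 counts in all 17 libraries. Mmp1b, Mmp7, Mmp20 and Mmp21 had no count in any library, and Mmp10, Mmp12, Mmp24 and Adamts13 stayed under a mean of 1 CPM in every group. Together the members held 0.395% to 0.67% of all gene counts in OPC libraries (median 0.48%) and 0.836% to 1.3% in SSC libraries (median 1.1%). All 9 OPC libraries lay below all 8 SSC libraries in this share. It is a share of counts before TMM normalization, whose factors were 0.734 to 1.015 in OPCs and 1.064 to 1.421 in SSCs. The part of library make-up in this gap was not tested.

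Levels of different genes were compared per kilobase of exon. MMP transcripts summed to 592 to 1500 normalized CPM per kilobase in OPCs and 711 to 1320 in SSCs, so the cell types overlapped. Mmp2, gelatinase A, made up 55.4% to 74.4% of the group means of this sum, and Mmp13, the collagenase of osteoblasts and hypertrophic chondrocytes, made up 6.52% to 21.7%. ADAMTS transcripts summed to 85.2 to 146 per kilobase in OPCs and 122 to 183 in SSCs. Adamts2, which removes the propeptide of type I procollagen, led in OPCs with 48.7% to 52.3% of the sum, and Adamts1, which cleaves versican and aggrecan, stood at 31.8% to 43.7% in SSCs, beside 34.7% to 38.8% for Adamts2.

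TIMP transcripts gave a clearer separation. They summed to 380 to 509 normalized CPM per kilobase in OPCs (median 439) and 805 to 1240 in SSCs (median 995), and no OPC library reached the lowest SSC library. This held when the sum was taken in TPM, which also scales by length (1280 to 1990 in OPCs and 3160 to 5040 in SSCs). The ratio of the TIMP sum to the MMP sum was 0.27 to 0.665 in OPCs (median 0.396) and 0.784 to 1.35 in SSCs (median 0.885), again without overlap. Timp2 made up 54.5% to 61.9% of the TIMP sum in OPCs and 79.9% to 82.8% in SSCs, and Timp1 33.9% to 41.1% in OPCs and 8.29% to 10.9% in SSCs.

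**Figure D1:**
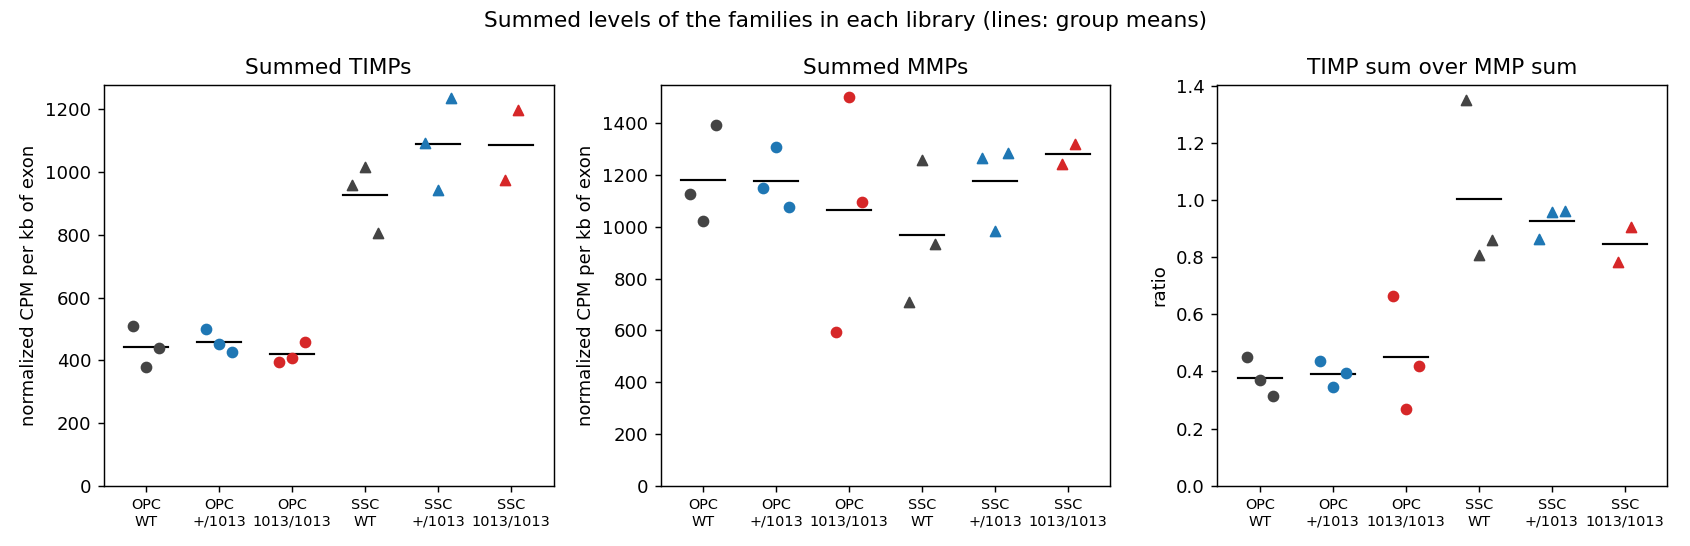
Summed TIMP and MMP transcripts in normalized CPM per kilobase of exon and the ratio of these sums (vertical) by cell type and genotype (horizontal), 1 point per library with the group mean as a line. TIMP sums were 380 to 509 in the OPC libraries and 805 to 1240 in the SSC libraries, whereas the MMP sums of the cell types overlapped.

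The cell types were compared within each genotype with the quasi-likelihood test of edgeR, adjusted by Benjamini-Hochberg (BH) over all genes tested, and a gene was called at an adjusted p under 0.05 and at least 1.5-fold. Of the 39 members tested, 6 were higher and 4 lower in SSCs than in OPCs in WT, where 11.4% of all genes tested were called (5.55% higher and 5.86% lower). In +/1013 mice, 4 members were higher and 6 lower (12.5% of all genes, 6.44% higher and 6.02% lower), and in 1013/1013 mice 5 were higher and 2 lower (13.1% of all genes, 6.94% higher and 6.12% lower). Groups did not overlap for 22, 24 and 22 members in WT, +/1013 and 1013/1013 of the 39, where 37.9%, 35.1% and 40.2% of all genes did not overlap. The median difference of the members, as log2 of SSC over OPC, was 0.43, -0.22 and 0.23 in the 3 genotypes, beside 0.17, 0.00 and -0.20 over all genes tested, against which single values should be read. A ± after a log2 difference is its SE. Mmp3, Timp2, Timp3, Mmp16 and Adamts10 were called in all 3 genotypes, 12.8% of the members tested beside 5.14% of all genes, and Adamts10 was the one whose direction changed between genotypes. DESeq2 called 18, 18 and 12 members in WT, +/1013 and 1013/1013, where it called 18.9%, 21.2% and 23.6% of all genes. Where no tool is named, called and not called refer to edgeR, and edgeR means the main fit unless an alternative setting is named. Alternative settings also added calls, and not all of these are listed.

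**Figure D2:**
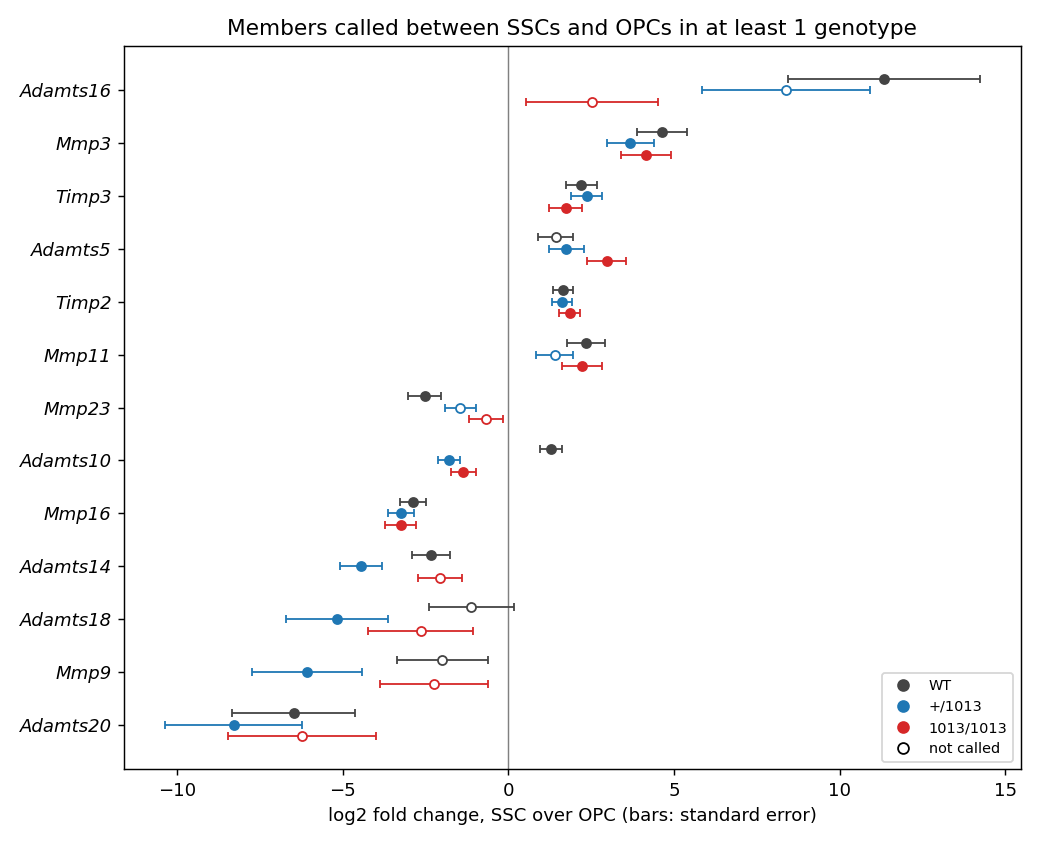
Log2 difference of SSCs over OPCs (horizontal) for the 13 members called in at least 1 genotype (vertical), 1 point each for WT, +/1013 and 1013/1013 with its SE as a bar and open points where it was not called. Mmp3, Timp2 and Timp3 lay above 0 and Mmp16 below 0 in all 3 genotypes, while Adamts10 lay at 1.29 in WT and at -1.79 and -1.36 in the mutants.

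Among the collagenases and gelatinases, edgeR called no member between the cell types in WT or 1013/1013 mice, and Mmp9 alone in +/1013 mice. In +/1013 mice DESeq2 also called Mmp13 and Mmp8 lower in SSCs (adjusted p = 0.00631 and 0.0106), and edgeR called Mmp13 there in 4 alternative settings. Mmp13 ranged from 143 to 854 normalized CPM in OPCs and from 106 to 435 in SSCs, with log2 differences of -0.48, -1.74 and -0.80. The lowest OPC value belonged to replicate 1 of 1013/1013, the library with the lowest sum of osteoblast genes among OPCs (7850). The same library had the highest sum of chondrocyte genes among OPCs (95360). The part of either cell type in the Mmp13 values was not tested. Mmp2 ranged from 1456 to 2701 in OPCs and from 1560 to 3398 in SSCs, and its differences were -0.29, 0.19 and 0.69. In WT the SE of these differences was 0.54 for Mmp13 and 0.26 for Mmp2.

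Mmp9, the gelatinase of osteoclasts and neutrophils, varied far more between libraries. Its normalized CPM was 46.4, 89.4 and 488 in WT, 126, 106 and 16.1 in +/1013, and 20.9, 1127 and 112 in 1013/1013 OPCs. In SSCs it was 13.9, 12.2 and 130 in WT, 0.634, 0.441 and 2.602 in +/1013, and 125 and 51.8 in 1013/1013. The 3 libraries high in myeloid genes held the highest Mmp9 values of their groups, while all 3 +/1013 SSC libraries were under 3 normalized CPM. The 7 osteoclast genes summed to 127 to 239 normalized CPM in OPCs and 43.1 to 285 in SSCs. Their sum was 127 in the OPC library and 229 in the SSC library with the most Mmp9, and their part was not tested. In +/1013 mice the log2 difference of SSCs over OPCs was -6.08 ± 1.67 (edgeR, BH-adjusted p = 0.0286), and none of the libraries high in myeloid genes is in either of these groups. This call was lost without replicate 1 or 2 of +/1013 OPCs (edgeR, BH-adjusted p = 0.0507 and 0.0601) or of +/1013 SSCs (adjusted p = 0.107 and 0.104).

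Mmp8, the neutrophil collagenase, was uneven between libraries. In OPCs it stood at 22.4, 1.41 and 230.1 in WT, 2.32, 3.81 and 2.56 in +/1013, and 1.803, 454 and 4.18 in 1013/1013 OPCs, in normalized CPM. The SSC values were 14.98, 6.96 and 102 in WT, 0.0856, 0 and 0 in +/1013, and 0.0183 and 21.2 in 1013/1013. Mmp25, a membrane-anchored MMP of leukocytes, was 0.855, 0 and 17.6 in WT, 0, 0.524 and 0 in +/1013, and 0.194, 13.8 and 0 in 1013/1013 OPCs. Its SSC values were 0.325, 0.2096 and 4.55 in WT, 0, 0 and 0 in +/1013, and 0 and 0.0558 in 1013/1013. Both genes were thus highest in the library of WT OPCs, of 1013/1013 OPCs and of WT SSCs that was high in myeloid genes, and replicate 2 of 1013/1013 SSCs held 21.2 normalized CPM of Mmp8 at a myeloid sum of 521. The other 1013/1013 SSC library had the larger myeloid sum, 912, with Mmp8 at 0.0183 and Mmp9 at 125. The part of such cells in these values was not tested.

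**Figure D3:**
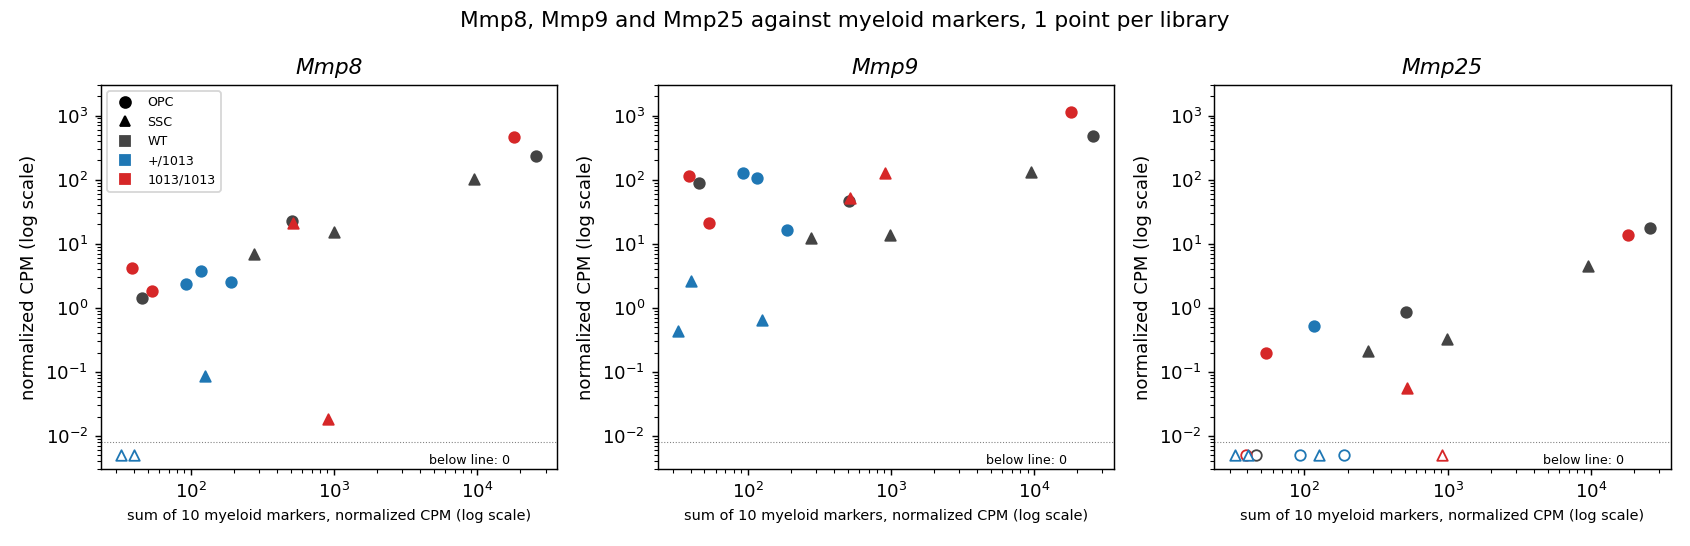
Normalized CPM of Mmp8, Mmp9 and Mmp25 in each library (vertical, log scale, with values of 0 drawn under the dotted line) against the summed normalized CPM of 10 neutrophil and myeloid genes (horizontal, log scale), coloured by genotype, with circles for OPCs and triangles for SSCs. The 3 libraries with sums of 9560 to 25800 lay at the upper right, with Mmp8 at 102 to 454, and Mmp9 also reached 125 in a library with a sum of 912.

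Stromelysins cleave proteoglycans, fibronectin and other non-fibrillar matrix proteins. Of this group with the elastase Mmp12, Mmp3, Mmp10, Mmp11 and Mmp12 were tested, of which Mmp3 was higher in SSCs in all genotypes and Mmp11 in WT and 1013/1013. Mmp3 was 3.88, 9.37 and 8.1 in WT, 6.14, 38.5 and 12.02 in +/1013, and 5.92, 11.3 and 7.85 in 1013/1013 OPCs, in normalized CPM. Among SSCs it was 111, 235 and 184 in WT, 233, 308 and 187 in +/1013, and 49.6 and 248 in 1013/1013. Every SSC library exceeded every OPC library, and the lowest SSC value belonged to replicate 1 of 1013/1013. The log2 difference of SSCs over OPCs was 4.64 ± 0.74 (edgeR, BH-adjusted p = 0.00145) in WT, 3.68 ± 0.71 (adjusted p = 0.00395) in +/1013 and 4.15 ± 0.75 (adjusted p = 0.00292) in 1013/1013. Mmp3 was 6.45% to 11.4% of the summed MMP transcripts per kilobase in SSCs.

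Mmp11, a stromelysin that furin activates inside the cell, was 5.88, 4.78 and 4.75 in WT, 20.1, 9.11 and 2.93 in +/1013, and 4.04, 3.73 and 8.29 in 1013/1013 OPCs, in normalized CPM. The values of SSCs were 21.3, 35.9 and 21.1 in WT, 20.2, 21.4 and 43.5 in +/1013, and 29.8 and 20.1 in 1013/1013. The SSC libraries were higher in each genotype without overlap, but 1 +/1013 OPC library, at 20.1, lay just under the lowest +/1013 SSC library at 20.2. Its log2 difference was 2.35 ± 0.58 (edgeR, BH-adjusted p = 0.0183) in WT and 2.22 ± 0.62 (adjusted p = 0.0307) in 1013/1013, and 1.40 ± 0.56 (adjusted p = 0.124), not called, in +/1013. The WT call was lost without replicate 2 or 3 of WT OPCs or replicate 2 of WT SSCs (edgeR, BH-adjusted p = 0.0723, 0.0678 and 0.0667). The 1013/1013 call was lost without replicate 1 or 2 of 1013/1013 OPCs (edgeR, BH-adjusted p = 0.0914 and 0.0849). Of its exon length, 5.58% lies over exons of a gene on the other strand, and the libraries do not keep strand, so reads there cannot be told apart. Mmp10 and Mmp12 stayed at or under 2.18 and 1.77 normalized CPM in every library.

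Mmp3 and Mmp13 lie in a cluster of 9 members on chromosome 9 (mm10, 7272514 to 7699585, from Mmp13 to Mmp7), of which 4 reached 1 CPM in a group: Mmp3, Mmp8, Mmp13 and Mmp27. A RefSeq window from 250 bases before to 50 after the start was available for 31 of the 45 members, and was searched for the AP-1 words TGAGTCA and TGACTCA, which are the reverse complement of each other, so both strands were read. The windows of 6 members held a word (19.4%), as did those of 1607 of 27025 genes (5.95%). These 6, Mmp1b, Mmp3, Mmp7, Mmp10, Mmp12 and Mmp13, all lie in the cluster. The 100 bases before the start are shown for Mmp3 and Mmp13, the 2 abundant genes with a word, for Mmp10, which has one and was hardly detected, and for Mmp8, whose window has none. They are RefSeq sequence of GRCm38.p6 on the plus strand, 5′ to 3′, and the capitals mark the word.
Mmp3, chr9:7445722-7445821: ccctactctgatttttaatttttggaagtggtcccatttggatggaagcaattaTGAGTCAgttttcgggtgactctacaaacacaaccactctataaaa
Mmp13, chr9:7272414-7272513: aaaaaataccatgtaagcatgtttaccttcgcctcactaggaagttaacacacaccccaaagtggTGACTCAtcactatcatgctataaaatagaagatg
Mmp10, chr9:7502242-7502341: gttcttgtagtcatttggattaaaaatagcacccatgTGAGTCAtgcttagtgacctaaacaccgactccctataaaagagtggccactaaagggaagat
Mmp8, chr9:7558329-7558428: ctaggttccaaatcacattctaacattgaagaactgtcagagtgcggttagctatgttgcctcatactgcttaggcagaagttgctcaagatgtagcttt
Of the 3 genes shown with the word, Mmp3 was higher in SSCs in each genotype and Mmp10 was too low for a statement. Mmp13 was called lower in +/1013 SSCs by DESeq2 and by some alternative edgeR settings, but not by the main edgeR fit. A match is a run of letters and was not tested as a bound site.

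The membrane-anchored MMPs act at the cell surface. Mmp14, which cleaves collagen there and activates the Mmp2 precursor, ranged from 347 to 522 normalized CPM in OPCs and from 264 to 537 in SSCs, with log2 differences of 0.13, 0.04 and 0.17 and an SE of 0.26 in WT. Mmp16, a related activator of Mmp2, was 86.9, 108 and 165 in WT, 62.5, 90.2 and 116 in +/1013, and 49.96, 79.3 and 104 in 1013/1013 OPCs, in normalized CPM. Its SSC values were 12.8, 20.2 and 16.1 in WT, 7.35, 6.72 and 14.3 in +/1013, and 6.45 and 9.88 in 1013/1013. No SSC library reached the lowest OPC library. The log2 difference was -2.87 ± 0.40 (edgeR, BH-adjusted p = 0.000523) in WT, -3.24 ± 0.40 (adjusted p = 0.000153) in +/1013 and -3.25 ± 0.48 (adjusted p = 0.000657) in 1013/1013, the same direction in all 3 genotypes and opposite to that of Mmp3. Mmp17, anchored by a lipid, was 10.5, 2.23 and 6.59 in WT, 14.7, 9.38 and 1.39 in +/1013, and 1.97, 16.4 and 2.301 in 1013/1013 OPCs, and 6.47, 1.24 and 0.965 in WT, 2.91, 0.268 and 3.405 in +/1013, and 0 and 0.428 in 1013/1013 SSCs, with no call between the cell types by edgeR. DESeq2 called it lower in 1013/1013 SSCs, at -5.07 on the log2 scale (adjusted p = 0.00213). Mmp15 stayed between 0.0367 and 8.43 normalized CPM in all libraries and was not called by the main edgeR fit. DESeq2 called it lower in SSCs in both mutants, and edgeR with bias-adjusted quasi-likelihood did so in +/1013.

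Mmp23, an atypical MMP held in the membrane by its amino-terminal part, was 103, 101 and 299 in WT, 85.4, 134 and 122 in +/1013, and 70.8, 82.8 and 128 in 1013/1013 OPCs, in normalized CPM. In the SSC libraries it was 35.2, 31.4 and 20.6 in WT, 52.3, 34.9 and 37.2 in +/1013, and 88.2 and 29.04 in 1013/1013. WT SSCs were below WT OPCs, with a log2 difference of -2.53 ± 0.49 (edgeR, BH-adjusted p = 0.00447), but the mutants were not called by edgeR (-1.46 and -0.68, the first called by DESeq2), and replicate 1 of 1013/1013 SSCs reached 88.2 normalized CPM. Mmp19 was 0.665, 2.78 and 0 in WT, 9.28, 2.06 and 2.15 in +/1013, and 1.36, 4.74 and 1.79 in 1013/1013 OPCs, and 15.1, 15.02 and 11.7 in WT, 16.3, 16.6 and 28.04 in +/1013, and 20.5 and 14.3 in 1013/1013 SSCs. All SSC libraries lay above all OPC libraries for Mmp19, and its log2 differences were 3.60 ± 1.16 (edgeR, BH-adjusted p = 0.061), 2.18 ± 1.09 (adjusted p = 0.212) and 2.73 ± 1.18 (adjusted p = 0.146), none of which the main edgeR fit called. DESeq2 called Mmp19 in WT, as did edgeR with bias-adjusted quasi-likelihood and without replicate 2 or 3 of WT OPCs. In 1013/1013 edgeR called it with bias-adjusted quasi-likelihood and without the 3 libraries high in myeloid genes. Of its exon length, 28.3% is covered by exons on the other strand. Mmp27 had no count in OPCs except 0.237 normalized CPM in 1 library, while in SSCs it was 0.356, 0.02995 and 0.459 in WT, 7.55, 0.6897 and 2.31 in +/1013, and 11.6 and 0 in 1013/1013. In +/1013 mice this was at least 71.8-fold over the limit of 3 counts per OPC library, without a call by edgeR (BH-adjusted p = 0.0659), and DESeq2 called it in WT and +/1013. Mmp28 ranged from 1.64 to 12.2 normalized CPM over all libraries, was not called by edgeR, and was called higher in 1013/1013 SSCs by DESeq2 (1.68 on the log2 scale, adjusted p = 0.0342).

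Of the 7 proteoglycan-cleaving ADAMTS genes, 1 was lower in SSCs in WT mice, 1 higher and 1 lower in +/1013, and 1 higher in 1013/1013. Of all genes tested, 11.4%, 12.5% and 13.1% were called in these comparisons, and counts this small do not set the group apart. Adamts5, an aggrecanase, was 58.2, 17.5 and 16.4 in WT, 65.5, 17.98 and 24.8 in +/1013, and 27.6, 22.5 and 19.3 in 1013/1013 OPCs, in normalized CPM. SSCs had 105, 95.1 and 48.8 in WT, 123, 108 and 133 in +/1013, and 226 and 137 in 1013/1013. SSC libraries were above OPC libraries in both mutants, while the WT groups overlapped. The log2 difference was 1.43 ± 0.53 (edgeR, BH-adjusted p = 0.102) in WT, which DESeq2 called and the main edgeR fit did not. In WT edgeR called Adamts5 with a minimum of 10 counts in every library, with the replicate block and without replicate 1 of WT OPCs. The difference was 1.75 ± 0.54 (edgeR, BH-adjusted p = 0.0473) in +/1013 and 2.97 ± 0.59 (adjusted p = 0.00528) in 1013/1013. The +/1013 call was lost in 6 of 15 alternative settings, which were no filter and the omission of replicate 2 or 3 of +/1013 OPCs or of any +/1013 SSC library (edgeR, BH-adjusted p up to 0.16), while the 1013/1013 call was kept in 14 of 14. Adamts20, a versican-cleaving protease known from pigment cell development, was 11.99, 5.55 and 4.52 in WT, 4.62, 6.21 and 2.66 in +/1013, and 1.61, 8.56 and 0.694 in 1013/1013 OPCs, and 0, 0.2396 and 0 in WT, 0, 0.0383 and 0 in +/1013, and 0.0916 and 0 in 1013/1013 SSCs. It was near the limit of detection in SSCs, and its log2 difference was -6.48 ± 1.85 (edgeR, BH-adjusted p = 0.0379) in WT and -8.29 ± 2.07 (adjusted p = 0.0182) in +/1013. In 1013/1013 it was -6.24 ± 2.23 (adjusted p = 0.0839), called by DESeq2 and by edgeR with bias-adjusted quasi-likelihood, but not by the main edgeR fit. The WT call was lost in 7 of 14 alternative settings (edgeR, BH-adjusted p up to 0.111), among them the omission of any WT OPC library or of replicate 1 or 3 of WT SSCs, and the +/1013 call without replicate 1 or 3 of +/1013 SSCs (adjusted p = 0.0706 and 0.0654). Such large values rest on SSC counts at or near 0.

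Adamts1 ranged from 33.1 to 245 normalized CPM in OPCs and from 219.5 to 412 in SSCs, and Adamts4, the other aggrecanase, from 20.6 to 38.9 and from 28.0 to 116. Neither was called between the cell types in any genotype by the main edgeR fit or by DESeq2. Without replicate 1 of WT OPCs, edgeR called Adamts1 higher in WT SSCs. Replicate 1 of WT and of +/1013 OPCs held the highest Adamts1 and Adamts5 values of their groups, and 10 early response genes that tissue dissociation induces summed to 18200 normalized CPM in both of these libraries, within a range of 6440 to 22300 over OPCs and 12700 to 22900 over SSCs. The largest OPC sum, 22300, was in replicate 1 of 1013/1013, where Adamts5 was 27.6, the highest of its group but below 58.2 and 65.5 in the libraries named before. The part of these early response genes in the values was not tested. Adamts9, a versican-cleaving protease, was 10.5, 4.79 and 12.6 in WT, 5.65, 12.8 and 10.1 in +/1013, and 3.52, 4.39 and 4.67 in 1013/1013 OPCs, and 0.681, 1.36 and 0.759 in WT, 0.0514, 2.49 and 1.08 in +/1013, and 0 and 1.303 in 1013/1013 SSCs. Exons on the other strand cover 12% of its exon length. Its lowest OPC value lay above the highest SSC value, but the log2 differences of -3.31 ± 1.30 (edgeR, BH-adjusted p = 0.121), -2.98 ± 1.28 (adjusted p = 0.151) and -2.68 ± 1.49 (adjusted p = 0.25) were not called. DESeq2 called it lower in WT and +/1013 SSCs (adjusted p = 0.0144 and 0.027). Adamts8 and Adamts15 had overlapping ranges and were not called.

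The procollagen N-propeptidases split in pattern. Adamts2 was high in both types, from 297 to 648 normalized CPM in OPCs and from 342 to 669 in SSCs, with log2 differences of -0.19, -0.22 and 0.23 and an SE of 0.29 in WT. Adamts14, which removes the same propeptide, was 28.6, 64.5 and 49.4 in WT, 27.2, 99.2 and 48.5 in +/1013, and 15.2, 52.01 and 33.9 in 1013/1013 OPCs, in normalized CPM. The SSC libraries held 10.8, 9.84 and 7.46 in WT, 3.05, 1.92 and 3.02 in +/1013, and 12.6 and 3.56 in 1013/1013. All SSC libraries were below all OPC libraries. The log2 difference of SSCs over OPCs was -2.34 ± 0.58 (edgeR, BH-adjusted p = 0.0178) in WT and -4.45 ± 0.63 (adjusted p = 0.000446) in +/1013. In 1013/1013 it was -2.07 ± 0.66 (adjusted p = 0.0565), called by DESeq2 and not by the main edgeR fit. Alternative edgeR settings also called it, among them a minimum of 10 counts in every library and bias-adjusted quasi-likelihood. The WT call was lost without replicate 2 of WT OPCs or any WT SSC library (edgeR, BH-adjusted p = 0.0539 to 0.0716). Adamts3 ranged from 3.38 to 16.3 in OPCs and from 0 to 6.02 in SSCs without a call.

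Adamts10, a protease that binds fibrillin microfibrils (chromosome 17, mm10, 33524204 to 33553782, plus strand), was the member whose cell type difference turned with genotype. Its normalized CPM was 42.4, 29.4 and 50.1 in WT, 34.9, 40.95 and 57.4 in +/1013, and 30.4, 31.98 and 37.4 in 1013/1013 OPCs. Sorted SSCs had 86.2, 136 and 75.5 in WT, 10, 9.52 and 18.9 in +/1013, and 15.4 and 10.5 in 1013/1013. OPC values lay between 29.4 and 57.4 in all genotypes, WT SSCs were above all of them, and the 5 mutant SSC libraries were below all of them. The log2 difference of SSCs over OPCs was 1.29 ± 0.33 (edgeR, BH-adjusted p = 0.0206) in WT, -1.79 ± 0.33 (adjusted p = 0.00298) in +/1013 and -1.36 ± 0.38 (adjusted p = 0.0304) in 1013/1013. The test of the difference itself, the +/1013 effect in SSCs less that in OPCs, gave -3.08 ± 0.47 (edgeR, BH-adjusted p = 0.0449), where 0.084% of all genes tested were called. For 1013/1013 it gave -2.65 ± 0.50 (edgeR, BH-adjusted p = 0.0639), which was not called (0.153% of all genes were). DESeq2 called Adamts10 in both and also Mmp27 in the second of these tests of the difference, 1 and 2 members, where 2.16% and 5.64% of all genes were called. Over 20 alternative settings of the +/1013 fit the value stayed between -3.48 and -2.79, with adjusted p from 3.44e-07 (DESeq2) to 0.198 (edgeR without replicate 3 of WT OPCs), and it was called in 3. The 1013/1013 difference between the cell types was called in 6 of 14 alternative settings. It was lost without any 1 of the 1013/1013 OPC libraries (edgeR, BH-adjusted p = 0.0537 to 0.0906). The WT difference was lost without replicate 2 of WT OPCs or of WT SSCs (edgeR, BH-adjusted p = 0.0962 and 0.0959). Of the 8 chondrocyte genes, 8 had lower fitted values in the same test of the +/1013 difference (median -4.75, 7 with an unadjusted p under 0.05), and of the 7 stroma genes 5 were higher, and their part in the Adamts10 value was not tested.

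**Figure D4:**
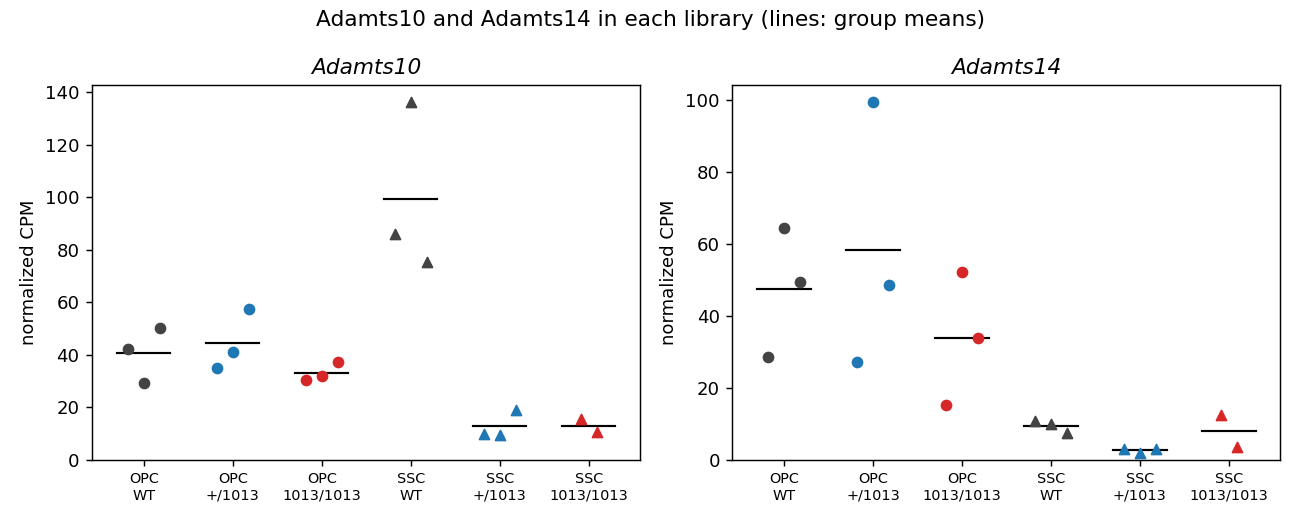
Normalized CPM of Adamts10 and Adamts14 (vertical) in each of the 17 libraries by cell type and genotype (horizontal), with the group mean as a line. Adamts10 was 75.5 to 136 in WT SSCs and 9.52 to 18.9 in mutant SSCs around an OPC range of 29.4 to 57.4, and Adamts14 was lower in every SSC library than in every OPC library.

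Other ADAMTS genes were low. Adamts16 was near 0 in OPCs, where 2 of 9 libraries had counts (0.0142 and 0.388 normalized CPM), and 4.64, 6.32 and 4.95 in WT, 2.83, 0.536 and 3.79 in +/1013, and 0 and 1.53 in 1013/1013 SSCs. Mean SSC levels in WT were at least 105-fold over the limit of 3 counts per library of the WT OPCs, which had none, and this was called (edgeR, BH-adjusted p = 0.0265), but not without any 1 of the 6 WT libraries (adjusted p = 0.05 to 0.0808). The mutants were not called, with adjusted p of 0.0514 and 0.411 by edgeR and BH, and DESeq2 called +/1013. Adamts18 was 11.2, 9.53 and 5.96 in WT, 3.27, 2.56 and 9.62 in +/1013, and 6.66, 5.26 and 7.87 in 1013/1013 OPCs, and 5.83, 1.78 and 4.67 in WT, 0, 0 and 0.419 in +/1013, and 0.0733 and 2.03 in 1013/1013 SSCs. Its difference in +/1013 mice was -5.18 ± 1.53 (edgeR, BH-adjusted p = 0.0404) on the log2 scale, and in WT and 1013/1013 it was -1.12 ± 1.28 (adjusted p = 0.63) and -2.65 ± 1.58 (adjusted p = 0.28). The +/1013 call was lost in 6 of 14 alternative settings, among them the omission of replicate 2 or 3 of +/1013 OPCs or replicate 1 or 2 of +/1013 SSCs (edgeR, BH-adjusted p up to 0.115). Adamts19 was listed in 1 OPC library at 1.48 and in SSCs at 0.898, 1.93 and 3.54 in WT, 1.17, 0 and 0.489 in +/1013, and 0.2199 and 0.558 in 1013/1013, without a call by the main edgeR fit. DESeq2 called it higher in WT SSCs (adjusted p = 0.00665), as did edgeR with bias-adjusted quasi-likelihood and with only the compared groups. Adamts6 was 6.15, 2.03 and 2.03 in WT, 0.6299, 0.544 and 1.66 in +/1013, and 1.23, 1.04 and 2.67 in 1013/1013 OPCs, and 13.1, 11.3 and 12.5 in WT, 4.42, 11.5 and 4.07 in +/1013, and 0 and 9.698 in 1013/1013 SSCs. Adamts7, Adamts12 and Adamts17 had group means of 0.946 to 13.9 normalized CPM and were not called by edgeR. DESeq2 called Adamts12 higher in WT SSCs (adjusted p = 0.0372) and Adamts17 lower in WT and +/1013 SSCs (adjusted p = 0.00995 and 0.0342).

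Of the 4 TIMPs, Timp2 and Timp3 were higher in SSCs than in OPCs in each genotype. Timp2, which inhibits most MMPs and also bridges Mmp14 to the Mmp2 precursor, was 1404, 752 and 664 in WT, 1459, 949 and 918 in +/1013, and 1053, 903 and 961 in 1013/1013 OPCs, in normalized CPM. In SSCs it was 2963, 3313 and 2625 in WT, 3545, 2457 and 4189 in +/1013, and 3344 and 3656 in 1013/1013. The lowest SSC library was 2457 and the highest OPC library 1459. The log2 difference was 1.66 ± 0.30 (edgeR, BH-adjusted p = 0.00331) in WT, 1.62 ± 0.30 (adjusted p = 0.00324) in +/1013 and 1.85 ± 0.33 (adjusted p = 0.00243) in 1013/1013. In normalized CPM per kilobase, Timp2 stood at group means of 241 to 285 in OPCs and 762 to 898 in SSCs, beside 590 to 749 and 606 to 953 for Mmp2.

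Timp3, which is bound to the matrix and also inhibits aggrecanases, was 272, 123 and 75.1 in WT, 177, 126 and 166 in +/1013, and 281, 107 and 151 in 1013/1013 OPCs, in normalized CPM. Its SSC values were 892, 713 and 547 in WT, 632, 1052 and 739.6 in +/1013, and 437 and 758 in 1013/1013. Again no OPC library reached the lowest SSC library. The log2 difference was 2.19 ± 0.47 (edgeR, BH-adjusted p = 0.00775) in WT, 2.37 ± 0.47 (adjusted p = 0.00467) in +/1013 and 1.73 ± 0.49 (adjusted p = 0.0338) in 1013/1013. The 1013/1013 call was lost without replicate 2 or 3 of 1013/1013 OPCs (edgeR, BH-adjusted p = 0.0871 and 0.0947). Of its exon length, 21.3% lies over exons of Syn3 on the other strand.

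**Figure D5:**
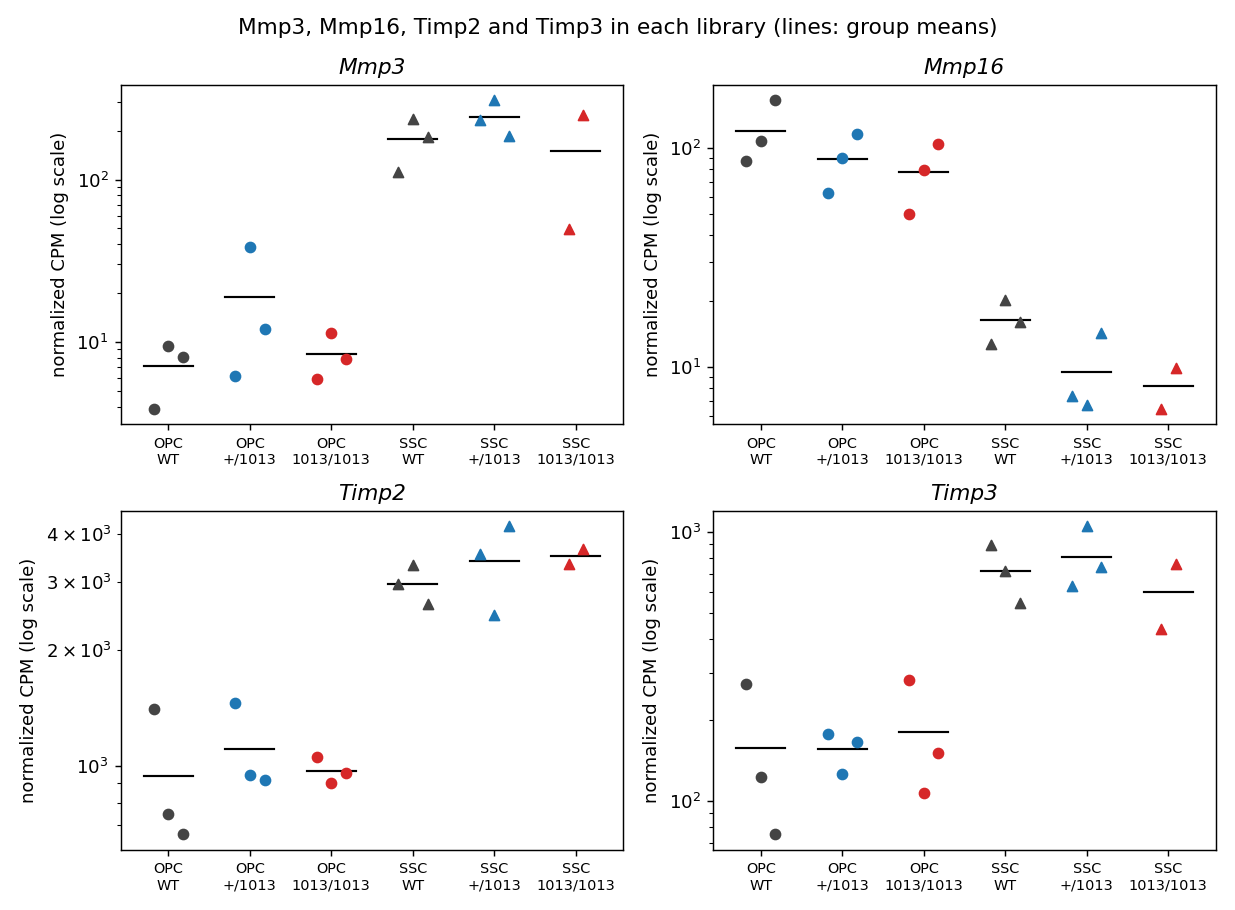
Normalized CPM (vertical, log scale) of Mmp3, Mmp16, Timp2 and Timp3 in each of the 17 libraries, by cell type and genotype (horizontal), with the group mean as a line, circles for OPCs and triangles for SSCs. All SSC libraries lay above all OPC libraries for Mmp3, Timp2 and Timp3 and below them for Mmp16.

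Timp1, an inducible and soluble inhibitor, was 102, 152 and 230.2 in WT, 92.5, 172 and 151 in +/1013, and 78.6, 143 and 173 in 1013/1013 OPCs, in normalized CPM. SSC values were 78.8, 69.2 and 56.6 in WT, 92.6, 162 and 61.2 in +/1013, and 52.7 and 146 in 1013/1013. Ranges overlapped in the mutants, and WT SSCs lay below WT OPCs with a log2 difference of -1.24 ± 0.46 (edgeR, BH-adjusted p = 0.0973). DESeq2 called this (adjusted p = 0.032) and the main edgeR fit did not. With a minimum of 10 counts in every library, or with only the compared groups, edgeR called it too. Timp4 was 1.22, 0 and 0 in WT, 0, 0 and 0 in +/1013, and 4.604, 0 and 0 in 1013/1013 OPCs, and 1.05, 0.734 and 0.1898 in WT, 15.4, 1.42 and 1.05 in +/1013, and 12.5 and 7.97 in 1013/1013 SSCs. Most OPC libraries had no count of Timp4. In +/1013 mice the SSC mean, which rests mostly on 1 library at 15.4, was at least 122-fold over the limit of 3 counts per library. The main edgeR fit did not call it (BH-adjusted p = 0.0673), while edgeR with the replicate block, bias-adjusted quasi-likelihood or only the compared groups did. For 1.53% of its exon length Timp4 lies over exons on the other strand.

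Between genotypes within a cell type, the same edgeR test with BH adjustment called 0 members in each of the 6 comparisons. It called 0% of all genes in +/1013 against WT OPCs, 0.00617% in 1013/1013 against WT OPCs and 0% between the mutant OPCs, and in SSCs 0.0736%, 0% and 0% in the same order. Members with an unadjusted p under 0.05 numbered 1, 1 and 2 of 34 in OPCs (Adamts6, Adamts9, and Adamts9 with Mmp8) and 7, 3 and 3 of 38 in SSCs. Over all genes these shares were 2.04%, 3.38% and 3.17% in OPCs and 17.3%, 18.3% and 5.53% in SSCs. DESeq2 called 0 members in the 3 OPC comparisons (0.358%, 0.259% and 0.364% of all genes), 3 in +/1013 against WT SSCs (Adamts10, Adamts14 and Mmp8 lower, 7.37% of all genes), 2 in 1013/1013 against WT SSCs (Adamts10 lower and Adamts5 higher, 9.67%) and 0 between the mutant SSCs (0.957%). Groups did not overlap for 12 of 38 members in +/1013 against WT SSCs, 3 higher (Adamts5, Mmp19 and Mmp27) and 9 lower (15% and 16.2% of all genes), and for 13 in 1013/1013 against WT SSCs, 4 higher (Adamts5, Mmp2, Timp2 and Timp4) and 9 lower (16.4% and 24.4%).

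In SSCs, Adamts10 had the smallest p of the members in both comparisons with WT. Its mean was 99.4 ± 32.6 normalized CPM (SD, n = 3) in WT SSCs, 12.8 ± 5.31 (n = 3) in +/1013 and 12.9 ± 3.49 (n = 2) in 1013/1013 SSCs. The log2 change was -2.97 ± 0.38 (edgeR, BH-adjusted p = 0.0505) in +/1013 and -2.92 ± 0.45 (adjusted p = 0.0744) in 1013/1013, so neither passed the threshold of 0.05. Over 16 alternative settings, leaving out libraries among them, the +/1013 change was between -3.40 and -2.69 and was called in 5. Over 15 such settings the 1013/1013 change was between -3.26 and -2.63. Of the fits that kept both 1013/1013 SSC libraries, the 1013/1013 change was called with DESeq2, with at least 10 counts in every library, and with all 17 libraries. In OPCs the changes were 0.12 ± 0.26 and -0.29 ± 0.26 (SE), and the ranges of the 3 genotypes overlapped. WT SSC libraries also had more genes with a count (21449 to 22599) than mutant SSC libraries (15748 to 19227) and more reads on no gene (3.68% to 4.16% against 1.5% to 2.69%), and genotype and such a difference in library make-up cannot be told apart here. The 7 genes of Sca-1-positive stroma summed to 1810 to 2590 normalized CPM in WT, 3610 to 5160 in +/1013 and 3230 to 6180 in 1013/1013 SSCs, with 7 of 7 fitted higher in either mutant (medians 1.18 and 1.32). The 8 chondrocyte genes summed to 652 to 4290, 28.5 to 144 and 7.86 to 172, with 8 of 8 fitted lower in either mutant (medians -4.40 and -4.01). Neither sum overlapped between WT and mutant SSCs, as for Adamts10, and their part in the Adamts10 values was not tested.

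Adamts14 was -1.83 ± 0.56 (edgeR, BH-adjusted p = 0.187) on the log2 scale in +/1013 over WT SSCs, and DESeq2 called it lower, but 1 of the 2 1013/1013 libraries (12.6 normalized CPM) was above all WT libraries. Adamts5 was higher in both 1013/1013 SSC libraries than in the WT libraries, with 1.15 ± 0.35 (edgeR, BH-adjusted p = 0.174) on the log2 scale. Timp4 was 3.98 ± 1.29 (edgeR, BH-adjusted p = 0.189) in 1013/1013 over WT SSCs, from low levels. Mmp27 in the same comparison was 4.38 ± 2.20 (edgeR, BH-adjusted p = 0.323), and it was 11.6 normalized CPM in 1 of these libraries and 0 in the other. The 8 tested genes of the other ADAMTS group all had lower fitted values in +/1013 than in WT SSCs, with a median of -1.42 beside -0.11 over all genes tested, and 0 were called. The 8 chondrocyte and 10 myeloid genes were all fitted lower in the same comparison (medians -4.40 and -6.11) and the 7 stroma genes all higher (1.18), and their part in this was not tested.

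The 3 largest fitted changes between +/1013 and WT SSCs belonged to Mmp8, Mmp9 and Mmp25, genes of neutrophils and, for Mmp9, osteoclasts. Mmp8 was -10.39 ± 2.61 (edgeR, BH-adjusted p = 0.153) and Mmp9 -5.45 ± 1.26 (adjusted p = 0.136), and Mmp25 was 0.325, 0.2096 and 4.55 normalized CPM in WT, highest in the library high in myeloid genes, and 0 in the +/1013 libraries. None was called by edgeR. These values rest on +/1013 counts at or near 0, and without that WT library Mmp8 was -8.46 and Mmp9 -3.42. Myeloid sums were 279 to 9560 in WT SSCs, 32.8 to 126 in +/1013 and 521 to 912 in 1013/1013, and they were lower in +/1013 than in WT as Mmp8, Mmp9 and Mmp25 were. The part of such cells was not tested. Between the mutants, 1013/1013 SSCs were above +/1013 SSCs by 6.22 ± 1.34 (edgeR, BH-adjusted p = 0.788) for Mmp9 and 8.39 ± 2.52 (adjusted p = 0.788) for Mmp8. The Mmp8 value rests on replicate 2 of 1013/1013 SSCs and was -0.62 without it. In the same comparison Mmp17 was -3.34 ± 1.97 (edgeR, BH-adjusted p = 0.788). Mmp25 was -5.86 ± 2.50 (edgeR, BH-adjusted p = 0.293) in 1013/1013 over WT SSCs.

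In OPCs, none of the 3 largest fitted changes of each comparison was called. Mmp8 was -4.88 ± 2.29 (edgeR, BH-adjusted p = 1) in +/1013 over WT OPCs, Mmp25 -5.17 ± 3.21 (adjusted p = 1) and Mmp19 1.95 ± 1.49 (adjusted p = 1). In 1013/1013 over WT OPCs, Adamts9 was -1.15 ± 0.45 (edgeR, BH-adjusted p = 1), Adamts6 -1.04 ± 0.76 (adjusted p = 1) and Mmp19 1.18 ± 1.46 (adjusted p = 1). The 1013/1013 libraries lay below the WT libraries without overlap for Adamts9. Between the mutants, Mmp8 was 5.72 ± 2.38 (edgeR, BH-adjusted p = 0.999), Mmp25 4.74 ± 3.15 (adjusted p = 0.999) and Mmp9 2.34 ± 1.45 (adjusted p = 0.999), where replicate 2 of 1013/1013 OPCs, high in myeloid genes, held 454 normalized CPM of Mmp8. Without that library Mmp25 was -0.80 and Mmp9 -0.32. Of the 16 ADAMTS genes tested in 1013/1013 over WT OPCs, 14 had lower fitted values, with a median of -0.42 beside 0.01 over all genes, and 0 were called. There, 8 of 8 chondrocyte genes and 6 of 6 erythroid genes were fitted higher (medians 1.38 and 1.85) and 6 of 8 osteoblast genes lower (median -0.37), and the osteoblast sum of 7850 in replicate 1 of 1013/1013 lay under all WT and +/1013 OPC libraries (18800 to 30100). Their part in the ADAMTS values was not tested.

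Genes around the proteases were read from 4 lists. Their counts between the cell types stand beside 11.4% of all genes called in WT, 12.5% in +/1013 and 13.1% in 1013/1013. Of 13 activators and cell-surface partners, 2 were higher and 2 lower in SSCs than in OPCs in WT mice, and 3 and 3 in each mutant. Lrp1, the receptor that clears MMPs, ADAMTS proteases and TIMPs from the surface, was higher by 2.23 ± 0.46 (edgeR, BH-adjusted p = 0.00645) on the log2 scale in WT, and Plat, which makes plasmin, by 1.57 ± 0.43 (adjusted p = 0.0296). The lower ones in WT were Bmp1, which removes the carboxy-terminal propeptide of procollagens, at -1.76 ± 0.31 (edgeR, BH-adjusted p = 0.00284), and Bsg, a surface inducer of MMPs, at -0.96 ± 0.22 (adjusted p = 0.011). In both mutants, Plau, the urokinase that makes plasmin, was called higher (3.20 and 4.99) and Adam12 lower (-3.39 and -5.18). In WT they were 2.82 ± 0.88 (edgeR, BH-adjusted p = 0.0543) and -2.67 ± 0.88 (adjusted p = 0.0649), not called, and the tests of the difference between mutant and WT called neither (adjusted p = 0.423 to 1 for Plau and 0.374 to 0.935 for Adam12). Furin, which activates membrane-anchored MMPs and ADAMTS precursors, was lower in both mutants, at -2.08 ± 0.39 (edgeR, BH-adjusted p = 0.00352) and -2.44 ± 0.47 (adjusted p = 0.00412), beside -0.24 ± 0.38 (adjusted p = 0.743) in WT, without a call for the difference itself (adjusted p = 0.332 and 0.157).

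Of 6 ADAMTS-like proteins, which share domains with ADAMTS but lack the protease, 2 were higher in SSCs in WT, Adamtsl5 at 3.49 ± 0.56 (edgeR, BH-adjusted p = 0.00143) and Adamtsl3 at 4.25 ± 1.17 (adjusted p = 0.0311), and Adamtsl5 alone in each mutant. Of 7 other inhibitors, 1 was lower in WT, Serpinh1 at -2.60 ± 0.35 (edgeR, BH-adjusted p = 0.000412), which is a collagen chaperone and does not inhibit proteases. Serpinh1 was also lower in both mutants, A2m, which traps proteases in plasma, was lower in +/1013, and Cst3, a cysteine protease inhibitor, was higher in both (1.66 and 1.81).

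Of 11 matrix substrates, 4 were higher and 6 lower in SSCs in WT, and 3 and 6 in each mutant. Fn1 was the one called higher in WT and in no mutant, and the difference itself was not called (edgeR, BH-adjusted p = 0.409 and 0.184). The higher ones in WT were Vcan at 3.77 ± 0.59 (edgeR, BH-adjusted p = 0.00121), Fn1 at 2.22, Col3a1 at 2.20 and Dcn at 1.46. Among the lower ones, Col1a1 was at -4.80 ± 0.53 (edgeR, BH-adjusted p = 9.2e-05), Col2a1 at -4.15 and Acan at -2.98, and the last pair also stands in the chondrocyte list, whose sums differed between the cell types. Between genotypes 0 genes of the 4 lists were called by edgeR in either cell type. DESeq2 called 0 of them in OPCs and, in +/1013 over WT SSCs, 1 higher and 5 lower substrates of 10, beside 1 and 3 in 1013/1013 over WT SSCs. Of all genes tested, DESeq2 called 7.37% and 9.67% in these SSC comparisons. It also called 1 higher and 1 lower activator and 2 higher inhibitors in +/1013, and 2 higher and 1 lower activator and 1 higher inhibitor in 1013/1013 over WT SSCs.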

How the data were processed

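RNA of sorted OPCs and SSCs was made into cDNA with the SMART-Seq v4 kit, which does not keep strand, and into paired-end Nextera XT libraries. The authors used FastQC on the reads, dropped short ones, mapped the rest to mm10 by STAR, assigned them to genes by HTSeq, and deposited whole-number counts per gene that were not normalized. Versions, the annotation release and the HTSeq settings are not given in the sources used here. The 5 special counters that HTSeq writes entered neither library sizes nor tests. Of the 55335 genes, 181 did not match GENCODE M21 by identifier.

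Counts were analysed in R 4.3.3 with edgeR 4.0.16 (filterByExpr, TMM, glmQLFit with legacy = TRUE) and limma 3.58.1. The 3 genotypes of a cell type shared a fit for comparisons of genotype, and all 17 libraries shared one for comparisons of cell type and for their difference between genotypes. SEs were derived from the F statistic. Levels are CPM normalized by TMM over 17 libraries, per kilobase of union exon where genes are compared. DESeq2 1.42.0, other scalings and filters, a replicate block and leaving out libraries were alternatives. The fit was tested on simulated data with known changes.

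Values in every library are given for members called in a comparison with a group mean of at least 1 CPM, for the 3 largest fitted changes of each comparison among members at a mean of 1 CPM in a group compared, and for the TIMPs. Mmp2, Mmp13, Mmp14, Adamts1, Adamts2 and other members outside this rule are given by their range and were picked after their levels were seen. The gene families taken as members, and the lists, were chosen with earlier results of these data known, although the rule that finds the members in the table reads only symbol and gene type.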

Additional observations from a re-analysis of the deposited data

Results flagged for a closer look

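The +/1013 effect on Adamts10 differed between SSCs and OPCs by the test of the difference itself, at -3.08 on the log2 scale (edgeR, BH-adjusted p = 0.0449). The call was kept in 3 of 20 alternative settings and lost in 17 (edgeR, BH-adjusted p up to 0.198). In SSCs the 3 +/1013 libraries (9.52 to 18.9 normalized CPM) lay below the 3 WT libraries (75.5 to 136), whereas in OPCs both genotypes lay between 29.4 and 57.4. In the same test 8 of 8 chondrocyte genes had lower fitted values (median -4.75), and in SSCs their sum was 652 to 4290 normalized CPM in WT and 28.5 to 144 in +/1013, while genes of Sca-1-positive stroma summed to 1810 to 2590 and 3610 to 5160. The part of these in the Adamts10 value was not tested.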

How the results depend on the processing

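The labels do not say whether replicate numbers pair the samples, and the main fits used no pairing. Of 16 pairs with the same number within a cell type, 3 had a correlation over 0.1 (-0.208 to 0.242). Of 8 pairs of the same number and genotype across cell types, 2 had (-0.02 to 0.274). The WT pairs across cell types were at 0.082, 0.159 and 0.274, and replicate 3 was high in myeloid genes in both WT OPCs and WT SSCs. Whether the same mice gave both cell types is not known. With the replicate block, 0 members were called in the +/1013 difference of SSCs and OPCs, whose members' median moved to -0.44, and Adamts10 in 1013/1013 SSCs over OPCs had an adjusted p of 0.052.

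The number of members called depended on the tool more than the medians did, and the cause was not tested. DESeq2 called 3 in +/1013 and 2 in 1013/1013 over WT SSCs, 18, 18 and 12 in SSCs over OPCs (WT, +/1013 and 1013/1013), and 2 in the 1013/1013 difference. A minimum of 10 counts in every library gave 1, 1 and 1 for the comparisons of mutant with WT SSCs and the 1013/1013 difference. There 0.656%, 0.492% and 0.582% of all genes were called, with fewer genes tested. Its medians were 0.11 and 0.20 in these SSC comparisons, 0.69 in 1013/1013 SSCs over OPCs, and -0.11 and 0.17 in the +/1013 and 1013/1013 differences. Bias-adjusted quasi-likelihood gave 1 in +/1013 over WT SSCs (0.0963% of all genes), and 18 and 11 in the SSC over OPC comparisons of the mutants (17.3% and 17.8%). Upper-quartile scaling gave 1 in +/1013 over WT SSCs (0.187%). A fit of all 17 libraries gave 1 in each mutant over WT SSCs (0.716% and 1.05%). Fitting only the compared groups gave 16 (+/1013) and 2 (1013/1013) in SSCs over OPCs (18.1% and 3.14%), and a median of 0.14 in WT. The +/1013 difference had 0 calls with DESeq2's size factors in edgeR, upper-quartile scaling, no filter, bias-adjusted quasi-likelihood and without the 3 libraries high in myeloid genes.

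Without those 3 libraries, an alternative chosen after seeing the data, 5 members were called in WT SSCs over OPCs, where 5.34% of all genes were. Mmp11, Mmp23, Adamts14, Adamts16 and Adamts20 were not called. The log2 differences of Mmp11, Mmp23, Adamts14 and Adamts20 were then 2.43, -1.62, -2.17 and -6.17. The 1013/1013 difference had a median of 0.26. The log2 change of Mmp19 in 1013/1013 over WT OPCs was then -0.13, and in 1013/1013 over +/1013 OPCs that of Mmp9 -0.30 and of Mmp25 -0.82. Leaving out 1 library at a time, Mmp9 between the mutant OPCs was -0.32 to 2.91 and Mmp25 -0.80 to 11.2, both lowest without replicate 2 of 1013/1013 OPCs, and Mmp25 in the 1013/1013 difference -9.28 to 0.11, highest without it. Mmp27 was -7.09 to 5.31 in 1013/1013 over WT SSCs and -5.31 to 11.5 over OPCs, both lowest without replicate 1 of 1013/1013 SSCs, and Mmp8 was -0.62 to 12.3 over +/1013 SSCs, lowest without replicate 2.

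Calls were also counted without 1 library at a time, and without the 3 libraries high in myeloid genes. In SSCs over OPCs, 5 to 10 members were called in WT (5.34% to 11.5% of all genes) and 6 to 11 in +/1013 (7.43% to 13.5%). The +/1013 difference had 0 to 1 calls, where at most 0.0659% of all genes were called. Leaving out either 1013/1013 SSC library leaves a lone library that is assumed to vary like the other groups. The numbers of members called in those fits are therefore not given, but tallies of alternative settings for single genes include those fits. With both kept, 1013/1013 SSCs over OPCs had 3 to 4 members higher and 1 to 2 lower (8.42% to 11.5% of all genes). Then 0 members were called in 1013/1013 over WT or +/1013 SSCs, and 0 in the 1013/1013 difference. Medians ranged from -0.13 to 0.08, -0.42 to -0.14 and -0.40 to -0.08 in the 3 OPC comparisons, -0.47 to -0.10, -0.74 to 0.009 and -0.48 to 0.29 in the 3 SSC comparisons, 0.041 to 0.66, -0.51 to 0.00 and -0.67 to 0.42 in SSCs over OPCs, and -1.18 to -0.17 and -0.59 to 0.26 in the differences. Mmp3, Mmp16, Timp2 and Timp3 stayed called in all 15 alternatives in WT and in +/1013. In 1013/1013, Mmp16 stayed called in 14 of 14, Timp2 and Mmp3 in 13, Timp3 in 8 and Adamts10 in 6. With 3 and 2 libraries, 1013/1013 SSCs allow the weakest statements, and members under the limit of 3 counts cannot be called absent.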
